A study of Mus musculus with 18 samples.

Results

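The 8 genes *Twist1*, *Tcf12*, *Erf*, *Zic1*, *Efnb1*, *Efna4*, *Il11ra1* and *Por* were followed across 3 mandibular tissues and both genotypes of a mouse model of Apert syndrome. They were chosen by name, as genes in which mutations other than those of *Fgfr2* are known to cause craniosynostosis, and the rule used no measured value, although earlier results of these data were known. They are 8 of the 38243 genes in the count files. The libraries came from female embryos on a C57BL/6 background at embryonic day (E) 16.5. Of the embryos, 3 carried the S252W allele of *Fgfr2* (written *Fgfr2 +/S252W* here, and Fgfr2S252W in the labels, with an Apert syndrome disease state) and 3 were littermates without it (WT). Mandibular bone, Meckel's cartilage (MC) and mandibular condylar cartilage were collected from cryosections by laser capture microdissection, with 1 library for each tissue of each embryo, so that 18 libraries fell into 6 groups of 3. The mutant embryos were heterozygous for the allele by the name the study gives them. That libraries of the 3 tissues with one replicate number came from one embryo was inferred from the sample descriptions.

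Craniosynostosis is the premature fusion of the sutures between the skull bones. The sutures hold mesenchymal progenitors, and the genes known to cause the condition act on how these cells keep their boundaries, proliferate or turn into osteoblasts. *Twist1* and *Tcf12* encode basic helix-loop-helix (HLH) transcription factors that pair with each other and bind E-boxes, and *Twist1* restrains osteoblast differentiation. *Erf* encodes an ETS-domain repressor that ERK, a kinase downstream of FGF receptors, moves out of the nucleus, and *Zic1* encodes a zinc-finger transcription factor. *Efnb1* and *Efna4* encode ephrins, membrane-bound ligands of Eph receptors that separate neighboring cell populations. *Il11ra1* encodes the receptor subunit that binds interleukin 11 and signals together with gp130, the product of *Il6st*. *Por* encodes cytochrome P450 oxidoreductase, the electron donor of microsomal P450 enzymes, including one of sterol synthesis and those that degrade retinoic acid.

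The promoters of 5 of the genes are shown because *Tcf12*, *Il11ra1*, *Erf* and *Efna4* had their highest levels relative to the median gene in the same tissue, MC, whereas *Twist1* had its highest mean in bone. Each sequence runs 5′ to 3′ on the strand of the gene, over 300 bases that end shortly after a start site in RefSeq (GRCm38.p6). All 8 genes had at least 1 entry, and the first is printed where a gene had several. Capitals mark E-boxes, searched as CANNTG, a motif that reads the same on both strands.
*Tcf12* promoter (chr9:72111770-72112069, minus strand): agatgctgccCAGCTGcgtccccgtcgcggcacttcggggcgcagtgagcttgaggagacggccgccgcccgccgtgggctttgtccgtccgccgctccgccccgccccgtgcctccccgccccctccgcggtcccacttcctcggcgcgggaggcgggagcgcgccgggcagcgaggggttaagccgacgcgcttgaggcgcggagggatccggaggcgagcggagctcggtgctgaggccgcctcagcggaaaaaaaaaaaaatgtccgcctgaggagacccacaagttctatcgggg
*Il11ra1* promoter (chr4:41760193-41760492, plus strand): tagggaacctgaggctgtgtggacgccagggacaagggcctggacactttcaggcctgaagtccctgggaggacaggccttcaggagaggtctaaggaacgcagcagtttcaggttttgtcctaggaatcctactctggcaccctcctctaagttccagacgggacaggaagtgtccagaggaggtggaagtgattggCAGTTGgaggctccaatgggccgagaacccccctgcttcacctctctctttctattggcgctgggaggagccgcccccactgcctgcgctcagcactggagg
*Erf* promoter (chr7:25250709-25251008, minus strand): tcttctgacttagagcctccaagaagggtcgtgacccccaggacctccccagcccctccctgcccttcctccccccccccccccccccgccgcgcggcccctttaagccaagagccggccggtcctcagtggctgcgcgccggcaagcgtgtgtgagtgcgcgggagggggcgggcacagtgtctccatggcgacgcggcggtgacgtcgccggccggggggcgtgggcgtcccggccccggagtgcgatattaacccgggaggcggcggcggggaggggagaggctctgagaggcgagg
*Efna4* promoter (chr3:89337979-89338278, minus strand): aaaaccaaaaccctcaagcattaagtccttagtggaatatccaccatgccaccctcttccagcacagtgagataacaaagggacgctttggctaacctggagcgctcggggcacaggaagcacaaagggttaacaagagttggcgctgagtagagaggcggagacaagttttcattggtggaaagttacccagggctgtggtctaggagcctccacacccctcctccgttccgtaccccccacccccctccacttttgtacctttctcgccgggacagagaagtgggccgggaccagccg
*Twist1* promoter (chr12:33957421-33957720, plus strand): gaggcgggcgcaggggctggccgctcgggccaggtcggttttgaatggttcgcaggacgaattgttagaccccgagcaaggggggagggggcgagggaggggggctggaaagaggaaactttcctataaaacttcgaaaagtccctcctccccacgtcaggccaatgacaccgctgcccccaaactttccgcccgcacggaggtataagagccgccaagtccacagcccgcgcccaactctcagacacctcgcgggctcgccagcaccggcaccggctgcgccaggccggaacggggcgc
The *Tcf12* and *Il11ra1* promoters printed each held 1 E-box, and those of *Erf*, *Efna4* and *Twist1* held none in this window. Other entries of the same genes differed: promoter 2 of *Tcf12* held 2 E-boxes and promoter 3 held 1, and promoter 2 of *Il11ra1* held 0. E-boxes occurred in 72.3% of 32851 promoters of this length. The ETS core GGAA, searched on both strands, occurred in all 5 promoters and in 96.0% of all promoters. CATCTG, an E-box of the kind TWIST1 binds, occurred in none of the 5 and in 17.2% of all promoters. A match of letters is a description and no evidence of binding.

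The authors' counts are fragments (read pairs) per gene on mm10, between 8218548 and 15585778 per library with a median of 10581032. Normalized values are CPM, counts scaled to a common depth, after scaling by the trimmed mean of M-values (TMM), and differences are log2 values. The MC libraries held little of the defining cartilage transcripts. The summed level of 10 chondrocyte markers was 421 to 9946 CPM in MC, with each of the 10 detected in every MC library, against 32319 to 39841 CPM in condylar cartilage and 229 to 589 CPM in bone. Loose connective tissue and perichondrium markers, 10 genes, summed to 2763 to 3602 CPM in MC, 1191 to 1554 CPM in condylar cartilage and 2627 to 3991 CPM in bone. The name MC is therefore used here as the label of the captured samples. A single gene, *Gm42418*, took 24.1% to 39.4% of the fragments in MC, 5.58% to 9.33% in bone and 10.9% to 20.2% in condylar cartilage, and mitochondrial genes took 19.4% to 38.1% over all libraries. Scaling by total counts in place of TMM, tried after seeing the data, put the median gene at 1.10 for bone over MC, 0.79 for condylar cartilage over MC and 0.30 for bone over condylar cartilage, against 0.021, 0.014 and 0.0024 with TMM. Every difference between tissues given here is therefore relative to the median gene. In these captured samples, fewer cells of a type and less RNA per cell cannot be told apart.

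Of the 8 genes, 7 passed the filter on low values, which kept the 11469 genes above 1 FPKM (fragments scaled by gene length and depth) in at least 50% of libraries. *Zic1* (ENSMUSG00000032368, chromosome 9 from 91358058 to 91365810, minus strand) did not. It had 2 fragments in the condylar cartilage of WT replicate 3 and 0 fragments in the other 17 libraries. At the depth of these libraries, 3 fragments correspond to 0.133 to 0.675 CPM, which limits what a count of 0 allows. *Zic1* was thus not detectable in bone or MC of either genotype at this depth. Its relatives *Zic2*, *Zic4* and *Zic5* and the engrailed homeobox genes *En1* and *En2* did not pass the filter either. *Zic4* and *En2* had 0 fragments in every library, *Zic2* had at most 3, *Zic5* at most 21 and *En1* at most 35.

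Per length, *Tcf12* was the most abundant of the 7 genes in every tissue. Its median was 14.9 FPKM in bone, 22.1 FPKM in MC and 8.12 FPKM in condylar cartilage, above 84.1%, 92.5% and 68.0% of the genes kept. At the other end, *Il11ra1* had medians of 1.46 FPKM in bone and 1.17 FPKM in condylar cartilage, above 15.2% and 12.6% of the genes kept. In MC, however, *Il11ra1* had a median of 10.2 FPKM, above 77.2% of the genes kept, and was second to *Tcf12* there. *Efna4* had medians of 1.66 FPKM in bone, 5.10 FPKM in MC and 1.57 FPKM in condylar cartilage. *Efnb1* and *Por* stayed between 4.23 and 6.58 FPKM in all tissue medians, near the median gene at 4.57 FPKM in bone, 4.76 FPKM in MC and 4.55 FPKM in condylar cartilage.

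The tissues were compared first, averaged over the genotypes, with the embryo as a random block in limma and a Benjamini-Hochberg adjusted p below 0.05 over all 11469 genes. Between bone and MC, 4 of 7 genes were lower in bone (*Il11ra1*, *Efna4*, *Erf* and *Tcf12*) and 0 were higher. Of all genes, 50.5% differed in this comparison, 24.1% lower and 26.3% higher in bone. Between bone and condylar cartilage, 2 of 7 genes were higher in bone (*Twist1* and *Tcf12*) and 0 were lower, where 48.3% of all genes differed, 25% higher and 23.4% lower in bone. Between condylar cartilage and MC, 6 of 7 genes differed, against 55.8% of all genes. There, 5 genes were lower in condylar cartilage (*Il11ra1*, *Efna4*, *Tcf12*, *Twist1* and *Erf*), against 27.6% of all genes, and *Por* was higher, against 28.3%. The median difference over the 7 genes was -0.57 between bone and MC, 0.34 between bone and condylar cartilage and -1.40 between condylar cartilage and MC, beside 0.021, 0.0024 and 0.014 for all genes. With total counts, the 7 genes split into 4 higher and 1 lower in bone than in MC (all genes 70% and 4.39%), 3 and 0 in bone over condylar cartilage (29.8% and 10.6%), and 2 and 3 in condylar cartilage over MC (53.5% and 10.4%). These TMM counts lie beside backgrounds of 48.3% to 55.8% and describe the 7 genes without setting them apart from others. In each of the 11 called differences other than that of *Por*, the 6 libraries of one tissue did not overlap the 6 of the other. Tissues did not overlap in 24.9% of all genes between bone and MC, 31.9% between bone and condylar cartilage and 29.5% between condylar cartilage and MC. For these 11 the exact permutation test over the 6 embryos, two-sided, gave p = 0.03125, the smallest that 6 pairs allow.

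**Figure D1:**
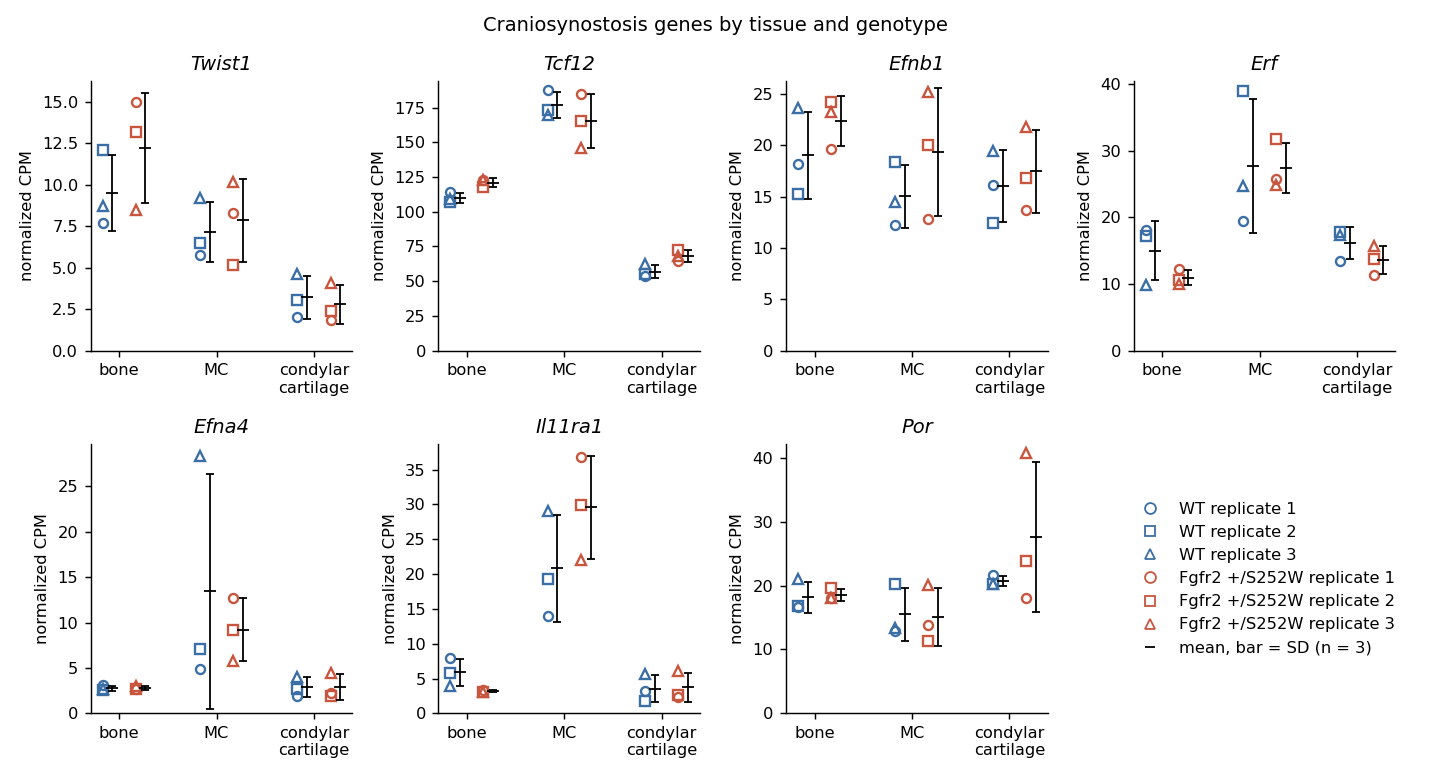
Normalized CPM (linear axis) of the 7 genes kept by the filter in each library, by tissue on the horizontal axis. Symbols are replicates, colors are genotypes, and black bars give the mean and SD of 3 libraries. *Il11ra1* stood at 14.0 to 36.7 CPM in MC and at most 7.90 CPM elsewhere, and *Efna4* had 1 MC library at 28.3 CPM.

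*Twist1* (ENSMUSG00000035799, chromosome 12 from 33957671 to 33959817, plus strand) had its highest mean in bone. Its lowest, median and highest values were 7.69, 10.4 and 15.0 CPM in bone, 5.18, 7.39 and 10.2 CPM in MC, and 1.87, 2.74 and 4.60 CPM in condylar cartilage. Condylar cartilage lay below both other tissues without overlap, whereas bone and MC overlapped. The difference was 1.93 (SE 0.27, limma adjusted p = 6.21e-06) for bone over condylar cartilage, a 3.80-fold difference, and -1.40 (SE 0.32, limma adjusted p = 0.000875) for condylar cartilage over MC. Bone and MC differed by 0.53 (95% interval 0.0048 to 1.05, limma adjusted p = 0.0865), which did not pass. Without the bone library of *Fgfr2 +/S252W* replicate 3 it did pass, at 0.64 (limma adjusted p = 0.0347), as it did without a filter on low values (0.68, limma adjusted p = 0.0344) and with total counts (1.59, limma adjusted p = 2.89e-05). Condylar cartilage over MC did not pass with total counts (-0.59, limma adjusted p = 0.137) or in the 9 WT libraries alone (-1.16, limma adjusted p = 0.0578). The condylar values rest on 27 to 51 fragments per library, those in MC on 23 to 62 and those in bone on 115 to 297.

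*Tcf12* (ENSMUSG00000032228, chromosome 9 from 71842688 to 72111871, minus strand), the E-box partner of *Twist1*, separated all 3 tissues. Its lowest, median and highest values were 107, 116 and 123 CPM in bone, 146, 172 and 187 CPM in MC, and 53.5, 63.2 and 72.5 CPM in condylar cartilage. The 3 tissues did not overlap. The difference was -0.57 (SE 0.090, limma adjusted p = 3.02e-05) for bone over MC, 0.89 (SE 0.093, limma adjusted p = 1.01e-07) for bone over condylar cartilage and -1.46 (SE 0.096, limma adjusted p = 1.34e-10) for condylar cartilage over MC. Each held in 6 of 6 embryos. The direction between bone and MC depended on the scaling: with total counts *Tcf12* was higher in bone by 0.51 (limma adjusted p = 0.0299), while it stayed 0.59 below the median gene.

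*Erf* (ENSMUSG00000040857, chromosome 7 from 25242561 to 25250761, minus strand) was highest in MC. The lowest, median and highest values were 9.88, 11.4 and 18.1 CPM in bone, 19.5, 25.3 and 39.0 CPM in MC, and 11.4, 14.7 and 17.8 CPM in condylar cartilage. MC lay above both other tissues in every library. The difference was -1.07 (SE 0.19, limma adjusted p = 0.000107) for bone over MC and -0.85 (SE 0.20, limma adjusted p = 0.00100) for condylar cartilage over MC. Bone and condylar cartilage differed by -0.22 (95% interval -0.61 to 0.18, limma adjusted p = 0.363). With total counts neither difference from MC passed, at -0.024 (limma adjusted p = 0.921) and -0.10 (limma adjusted p = 0.694), nor did they in the 9 WT libraries alone, at -0.83 (limma adjusted p = 0.0737) and -0.67 (limma adjusted p = 0.124).

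*Il11ra1* (ENSMUSG00000073889, chromosome 4 from 41699989 to 41769474, plus strand) had the largest tissue differences of the 7 genes. Its lowest, median and highest values were 3.10, 3.67 and 7.90 CPM in bone, 14.0, 25.6 and 36.7 CPM in MC, and 1.74, 2.95 and 6.16 CPM in condylar cartilage. Every MC library lay above every other library. MC was 5.54-fold above bone (-2.47, SE 0.26, limma adjusted p = 2.04e-07) and 7.40-fold above condylar cartilage (-2.89, SE 0.30, limma adjusted p = 9.04e-08). The call held with total counts, at -1.42 and -2.10. Bone and condylar cartilage differed by 0.42 (95% interval -0.26 to 1.10, limma adjusted p = 0.307), which passed with sample quality weights (0.63, limma adjusted p = 0.0319). Of the 100-base stretches of its longest transcript, 42.7% also occur in *Gm13305* or *Il11ra2*, and fragments that map to several places were not counted, so the level of *Il11ra1* is uncertain as an absolute value. *Il11ra2* had 0 fragments in every library and *Gm13305* had at most 3. The same rule left out fragments they share with *Il11ra1*, so these counts do not show that either was silent.

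*Efna4* (ENSMUSG00000028040, chromosome 3 from 89333390 to 89338028, minus strand) was also highest in MC, and bone over condylar cartilage did not pass (0.066, 95% interval -0.78 to 0.91, limma adjusted p = 0.906). The lowest, median and highest values were 2.57, 2.66 and 3.08 CPM in bone, 4.92, 8.16 and 28.3 CPM in MC, and 1.88, 2.51 and 4.49 CPM in condylar cartilage. The highest MC value was that of WT replicate 3, with 151 fragments, and the other MC libraries stood between 4.92 and 12.7 CPM. The difference was -1.68 (SE 0.36, limma adjusted p = 0.000635) for bone over MC and -1.75 (SE 0.39, limma adjusted p = 0.000752) for condylar cartilage over MC. Without that library the first was -1.35 (limma adjusted p = 0.000442) and the second -1.40 (limma adjusted p = 0.000440). The first did not pass with total counts (-0.71, limma adjusted p = 0.0563) or in the 9 WT libraries alone (-1.65, limma adjusted p = 0.0549). Of its exonic bases, 10.5% overlap *4731419I09Rik* on the opposite strand. Counting ignored strand, so reads of the pair cannot be told apart there, and *4731419I09Rik* itself had at most 11 fragments per library.

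*Efnb1* (ENSMUSG00000031217, chromosome X from 99136130 to 99148991, plus strand), the other ephrin, showed no called difference with TMM in the fit of all libraries. The lowest, median and highest values were 15.3, 21.4 and 24.2 CPM in bone, 12.3, 16.4 and 25.2 CPM in MC, and 12.5, 16.5 and 21.8 CPM in condylar cartilage. All 3 tissues overlapped. The 95% interval was -0.064 to 0.75 for bone over MC (0.34, limma adjusted p = 0.151), -0.021 to 0.71 for bone over condylar cartilage (0.34, limma adjusted p = 0.113) and -0.43 to 0.44 for condylar cartilage over MC (0.0020, limma adjusted p = 0.994). Bone lay above condylar cartilage in 6 of 6 embryos (exact permutation p = 0.03125). With total counts all 3 differences passed, at 1.38, 0.62 and 0.76. Bone over MC also passed without a filter on low values (0.50, limma adjusted p = 0.0411), and bone over condylar cartilage with sample quality weights (0.36, limma adjusted p = 0.0289).

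*Por* (ENSMUSG00000005514, chromosome 5 from 135670033 to 135735326, plus strand) was the one gene that was higher in condylar cartilage than in MC. The lowest, median and highest values were 16.7, 18.03 and 21.0 CPM in bone, 11.3, 13.5 and 20.3 CPM in MC, and 18.1, 20.9 and 40.7 CPM in condylar cartilage. The difference was 0.61 (SE 0.21, limma adjusted p = 0.0162), higher in 5 of 6 embryos, although the tissues overlapped. The highest value was that of *Fgfr2 +/S252W* replicate 3, and the difference without that library was 0.51 (limma adjusted p = 0.0194). It did not pass in the 9 WT libraries alone (0.48, limma adjusted p = 0.167) or the 9 mutant libraries alone (0.74, limma adjusted p = 0.0769). The condylar library of *Fgfr2 +/S252W* replicate 3 had 19263 CPM of 9 osteoblast markers. WT replicate 3 had 12063 CPM of them, with *Por* at 20.2 CPM, and the other condylar libraries had 4898 to 6004 CPM. The part of these markers in the value of *Por* was not tested. The differences of bone from MC (0.31, 95% interval -0.12 to 0.74, limma adjusted p = 0.217) and from condylar cartilage (-0.30, 95% interval -0.66 to 0.048, limma adjusted p = 0.147) did not pass. The latter passed without the condylar library of *Fgfr2 +/S252W* replicate 1, at -0.45 (limma adjusted p = 0.0291), and the former with total counts, at 1.37 (limma adjusted p = 3.35e-05).

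**Figure D2:**
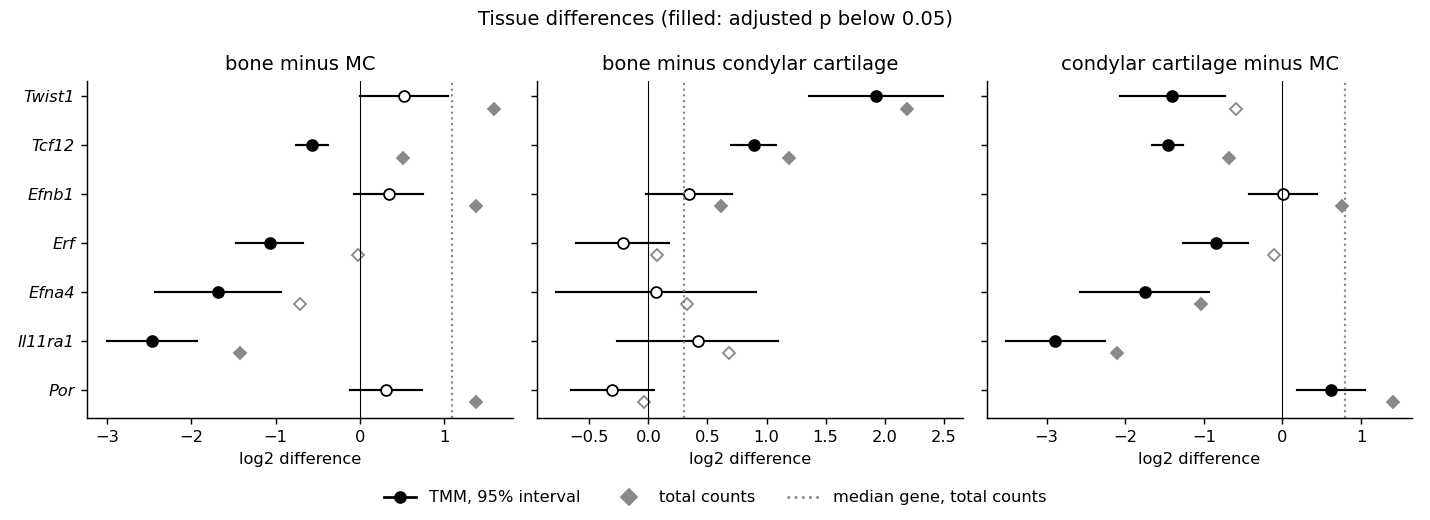
Log2 difference (horizontal axis) between tissues for the 7 genes: black circles with 95% intervals for TMM scaling, gray diamonds for total counts, and a dotted line for the median gene with total counts. Filled symbols passed an adjusted p of 0.05. With TMM, *Il11ra1* was at -2.47 and -2.89 against MC, and the diamonds are shifted by about the same amount for every gene of a panel.

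*Fgfr2* itself had 192 to 278 CPM in bone, 254 to 563 CPM in MC and 99.4 to 150 CPM in condylar cartilage, the order MC, bone, condylar cartilage also found for *Tcf12* with TMM. With TMM its difference for bone over MC was -0.72 (limma adjusted p = 0.00130), and with total counts it was 0.36 (limma adjusted p = 0.211). Since the S252W allele changes the protein and not the number of transcripts by design, counts per gene do not check the genotype labels. The second question was whether the 8 genes differed between *Fgfr2 +/S252W* and WT embryos. In none of the 3 tissues did any of the 7 genes kept pass: 0 of 7 did in bone, against 0.0872% of all genes, 0 of 7 in MC, against 0%, and 0 of 7 in condylar cartilage, against 0% (limma, n = 3 per genotype). At an unadjusted p below 0.05 in this fit there were also 0 of the 7 genes in each tissue, against 932, 1761 and 351 of 11469 genes. Neither edgeR's quasi-likelihood test nor DESeq2 called any of them, while over all genes edgeR called 4 of 11469 in bone, 90 in MC and 0 for condylar cartilage (399 there at an unadjusted p below 0.05), and DESeq2 called 17, 423 and 3 of 11454. In bone, the groups did not overlap for 2 of 7 genes, against 20.4% of all genes. In condylar cartilage they did not for 1 of 7, against 9.77%, and in MC for 0 of 7, against 13.5%. With 3 against 3 libraries the exact permutation test cannot go below p = 0.1.

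*Il11ra1* had the largest genotype difference in bone. Its values were 3.38, 3.10 and 3.10 CPM in *Fgfr2 +/S252W* bone and 7.90, 5.87 and 3.95 CPM in WT bone. All 3 mutant libraries lay below the 3 WT libraries, with the nearest WT value that of replicate 3. The difference was -0.81 (SE 0.40, 95% interval -1.64 to 0.027, limma adjusted p = 0.627). The unadjusted p of 0.0572 fell below 0.05 with edgeR (0.0441), DESeq2 (0.0319), the replicate number as a block in limma (0.0337) and the bone libraries alone in limma (0.0123), with adjusted p of 0.996, 0.600, 0.515 and 0.195. These libraries held 58 to 118 fragments of the gene. In MC it pointed the other way, with 36.7, 29.9 and 22.1 CPM in *Fgfr2 +/S252W* embryos and 14.0, 19.3 and 29.1 CPM in WT embryos. There the groups overlapped, and the difference was 0.63 (95% interval -0.024 to 1.29, limma adjusted p = 0.342). The highest and lowest of these MC values were those of replicate 1 of the mutant and of WT. The same libraries had the highest and lowest chondrocyte marker sums in MC, 9946 and 421 CPM, against 2395 to 3657 CPM in the others. The part of these sums in the difference was not tested. The genotype effect differed between bone and MC by -1.44 (SE 0.51, limma interaction, adjusted p = 0.351), which did not pass, with an unadjusted limma p of 0.0107 against 1208 genes below 0.05. In condylar cartilage the values were 2.41, 2.66 and 6.16 CPM against 3.23, 1.74 and 5.59 CPM, with a difference of 0.013 (limma adjusted p = 0.998).

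*Erf* had 12.3, 10.5 and 10.1 CPM in *Fgfr2 +/S252W* bone and 18.1, 17.2 and 9.88 CPM in WT bone. WT replicates 1 and 2 lay above all mutant libraries and WT replicate 3 lay below them. The difference was -0.39 (SE 0.25, 95% interval -0.92 to 0.14, limma adjusted p = 0.759). WT replicate 3 also stood apart in its share of mitochondrial fragments, 20.4%, against 36.0% and 34.8% in WT replicates 1 and 2 and 23.4% to 23.6% in the mutant bone libraries. When the bone libraries were fitted alone without it, a choice made after seeing the data, 11.4% of 11992 genes passed, 6.1% as lower in the mutant, and 2 of 7 genes did, both lower: *Il11ra1* at -1.11 (SE 0.24, limma adjusted p = 0.0129) and *Erf* at -0.71 (SE 0.16, limma adjusted p = 0.0174). With all 6 bone libraries fitted alone, 1.14% of genes passed and 0 of 7 did, with *Il11ra1* at -0.81 (limma adjusted p = 0.195) and *Erf* at -0.40 (limma adjusted p = 0.404). Leaving out the same library from the fit of all tissues also gave 0 of 7, with *Il11ra1* at -1.10 (limma adjusted p = 0.248) and *Erf* at -0.69 (limma adjusted p = 0.206). Both calls thus needed the bone libraries alone and WT replicate 3 left out together. Summed markers of other cells separated the genotypes in bone for red blood cells and for osteoclasts and macrophages, and overlapped for muscle, connective tissue and osteoblasts. Red blood cell markers, 7 genes, summed to 1281 to 1528 CPM in WT and 323 to 614 CPM in mutant bone. The 10 skeletal muscle markers summed to 57.0 to 380 CPM in WT and 4.76 to 59.0 CPM in mutant bone, with *Ckm*, *Myog* and *Myod1* at 0 in 1 or 2 libraries. The 10 osteoclast and macrophage markers summed to 722 to 891 CPM in WT and 1213 to 1618 CPM in mutant bone. The 10 loose connective tissue and perichondrium markers summed to 3978, 3991 and 2880 CPM in WT replicates 1 to 3 and to 2627 to 2923 CPM in mutant bone. Osteoblast markers, 9 genes, summed to 22135, 16803 and 34503 CPM in WT replicates 1 to 3 and to 27968 to 30158 CPM in mutant bone. Their part in the values of *Il11ra1* and *Erf* was not tested.

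**Figure D3:**
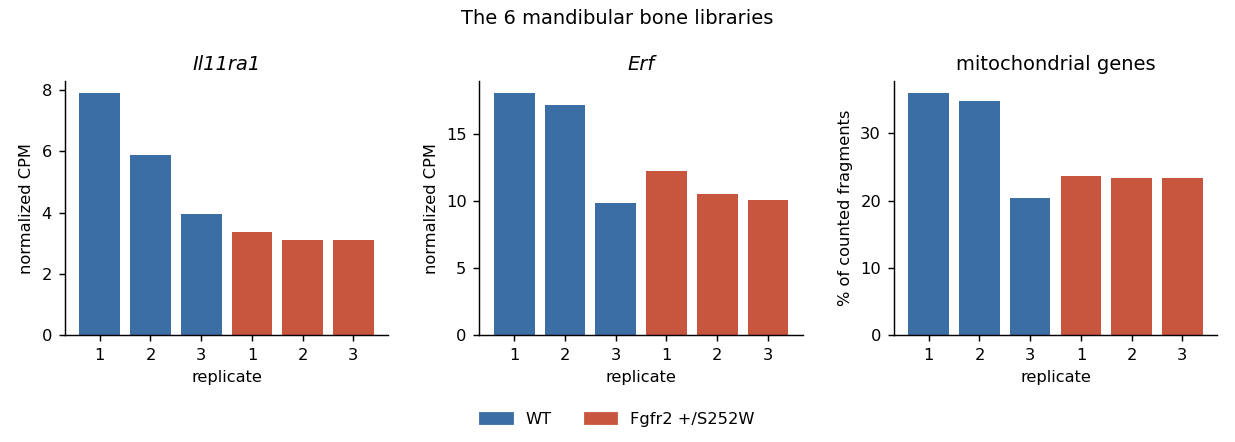
The 6 mandibular bone libraries, as bars from 0: normalized CPM of *Il11ra1* and *Erf*, and the share of counted fragments from mitochondrial genes (%). WT replicate 3 stood at 3.95 CPM, 9.88 CPM and 20.4%, nearer to the mutant libraries than to WT replicates 1 and 2 in each panel.

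*Tcf12* did not overlap between genotypes in bone or condylar cartilage. It had 123, 118 and 123 CPM in *Fgfr2 +/S252W* bone against 114, 107 and 109 CPM in WT bone, and 64.2, 72.5 and 68.2 CPM against 53.5, 55.2 and 62.2 CPM in condylar cartilage. The mutant libraries were the higher ones in both. The differences were 0.14 (95% interval -0.12 to 0.39, limma adjusted p = 0.857) and 0.26 (95% interval -0.024 to 0.55, limma adjusted p = 0.998). In condylar cartilage the 10 loose connective tissue and perichondrium markers did not overlap either, with 1397 to 1554 CPM in mutant and 1191 to 1376 CPM in WT libraries, and their part in the value of *Tcf12* was not tested. In MC the groups overlapped, at -0.10 (95% interval -0.38 to 0.17, limma adjusted p = 0.741). For *Tcf12*, the most deeply counted of the genes, the 95% intervals in all 3 tissues thus lay within 0.55 of 0.

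*Twist1* had 15.0, 13.2 and 8.51 CPM in *Fgfr2 +/S252W* bone and 7.69, 12.1 and 8.75 CPM in WT bone, which overlapped. The difference was 0.36 (95% interval -0.18 to 0.91, limma adjusted p = 0.806). It was 0.21 in MC (95% interval -0.66 to 1.08) and -0.27 in condylar cartilage (95% interval -1.26 to 0.72), where few fragments were counted. *Efnb1* differed by 0.24 in bone (95% interval -0.22 to 0.70), 0.34 in MC (-0.32 to 0.99) and 0.083 in condylar cartilage (-0.46 to 0.63). *Efna4* had 12.7, 9.23 and 5.78 CPM in *Fgfr2 +/S252W* MC and 4.92, 7.08 and 28.3 CPM in WT MC, which overlapped. Its difference was 0.036 in MC, -0.0016 in bone and -0.090 in condylar cartilage, with 95% intervals of -0.97 to 1.04, -1.08 to 1.08 and -1.35 to 1.17. The unweighted difference of mean log2 values in MC had the other sign, -0.18. The intervals rest on 1 estimate of spread shared by all tissues. For *Efna4* in bone the SE was 0.52 in this fit and 0.26 with the bone libraries alone. *Por* had 18.1, 23.9 and 40.7 CPM in *Fgfr2 +/S252W* condylar cartilage and 21.6, 20.2 and 20.2 CPM in WT condylar cartilage, where mutant replicate 1 lay below and replicates 2 and 3 above the WT libraries. Its difference was 0.029 in bone (95% interval -0.45 to 0.51), 0.0030 in MC (-0.69 to 0.69) and 0.26 in condylar cartilage (-0.24 to 0.77). None of the 21 interactions of genotype and tissue passed, where 0.0523% of all genes passed between bone and MC and 0 genes did in the other 2 pairs of tissues. The only one of the 21 with an unadjusted limma p below 0.05 was that of *Il11ra1* between bone and MC.

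**Figure D4:**
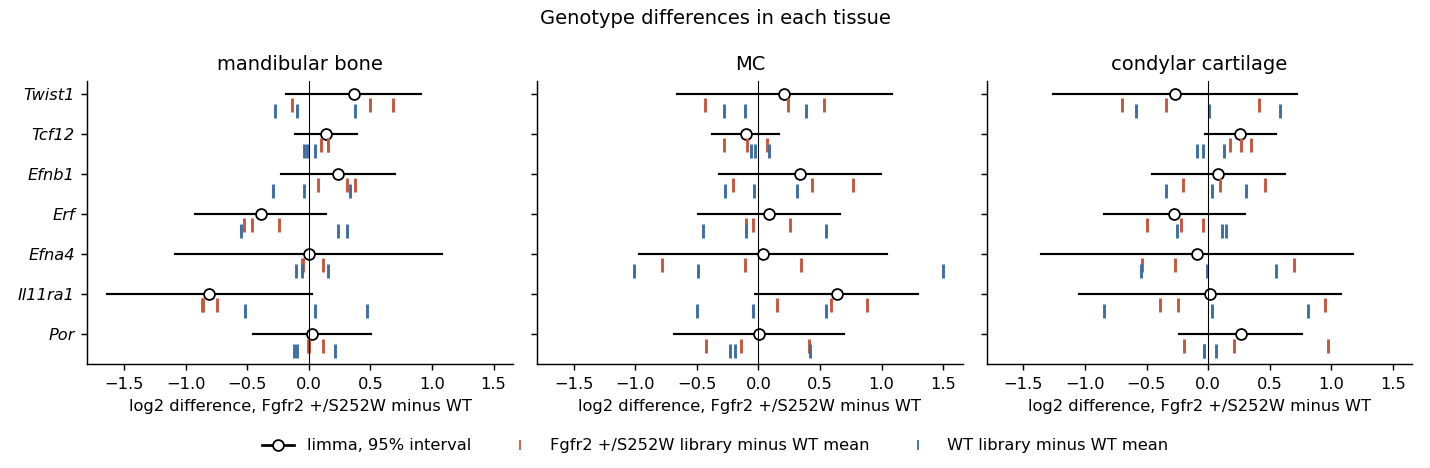
Log2 difference between *Fgfr2 +/S252W* and WT (horizontal axis) in each tissue: circles with 95% intervals from limma, and ticks for single libraries relative to the WT mean. Every interval includes 0, and that of *Il11ra1* in bone reaches from -1.64 to 0.027.

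The partners of the 8 genes were read from lists, beside the shares of all genes given above (26.3% higher and 24.1% lower for bone over MC, 25% and 23.4% for bone over condylar cartilage, 28.3% and 27.6% for condylar cartilage over MC) and medians over all genes of at most 0.021. These counts and directions are relative to the median gene, and those against MC shift with total counts as given for each list. Among 9 HLH partners, 5 passed the filter. The E proteins *Tcf3* and *Tcf4*, which like *Tcf12* pair with *Twist1*, were highest in MC, with medians of 20.4, 49.2 and 20.2 CPM for *Tcf3* and 170, 356 and 90.8 CPM for *Tcf4* in bone, MC and condylar cartilage. Bone over MC was -1.02 for *Tcf3* (limma adjusted p = 1.23e-05) and -1.07 for *Tcf4* (limma adjusted p = 2.64e-06), but 0.032 and -0.0020 with total counts, where neither passed. The inhibitory partners *Id1* and *Id3* were higher in bone than in MC, by 1.56 (limma adjusted p = 4.10e-05) and 1.09 (limma adjusted p = 8.55e-06). *Twist2*, the paralog of *Twist1*, did not pass the filter and had at most 12 fragments per library. Bone over MC had 2 of 5 higher and 2 lower, bone over condylar cartilage 3 higher and 0 lower, and condylar cartilage over MC 1 higher and 3 lower. With total counts these were 3 and 0, 3 and 0, and 2 and 1.

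Of 20 other ephrins and Eph receptors, 13 passed the filter. In bone, 3 were higher and 7 lower than in MC, with a median difference of -0.97, which became 6 higher and 3 lower and a median of 0.099 with total counts. In condylar cartilage, 4 were higher and 8 lower than in MC, with a median of -1.44 (5 and 6 with total counts, median -0.62). Among the lower ones was *Epha7*, at -2.61 for bone over MC (limma adjusted p = 3.74e-08) and -2.89 for condylar cartilage over MC (limma adjusted p = 2.11e-08). *Efnb3* was at -1.79 (limma adjusted p = 1.27e-06) and -4.72 (limma adjusted p = 2.19e-09), and *Ephb4* at -1.19 (limma adjusted p = 5.97e-07, but -0.11 and adjusted p = 0.664 with total counts) and -2.61 (limma adjusted p = 8.02e-11). Of 11 genes around *Erf*, 10 passed the filter and 2 were higher and 1 lower in bone than in MC, against 9 and 0 with total counts. *Etv3*, an ETS repressor related to *Erf*, passed in no pair of tissues with TMM (with total counts, 0.85 for bone over MC and 0.78 for condylar cartilage over MC passed), with differences of -0.21, -0.22 and 0.0055 for bone over MC, bone over condylar cartilage and condylar cartilage over MC (limma adjusted p between 0.254 and 0.982). *Etv1*, an ETS activator, was higher in bone, by 0.94 over MC (limma adjusted p = 0.00449) and 3.73 over condylar cartilage (limma adjusted p = 5.35e-08).

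The ligand and the second receptor chain of *Il11ra1* were at opposite ends of the range. *Il11* had at most 1 fragment in any library. *Il6st* had medians of 131 CPM in bone, 265 CPM in MC and 124 CPM in condylar cartilage, and like *Il11ra1* was higher in MC, with -1.0 for bone over MC (limma adjusted p = 4.13e-07) and -1.05 for condylar cartilage over MC (limma adjusted p = 1.19e-07). With total counts these were 0.067 and -0.29, and neither passed. Of the 11 genes of this list 7 passed the filter, and their median difference was 0.021 between bone and MC, with 2 higher and 2 lower (5 and 0 with total counts). *Lifr*, the receptor of leukemia inhibitory factor and another partner of *Il6st*, was higher in bone than in MC by 3.65 (limma adjusted p = 4.50e-09). Among 14 partners of *Por* and genes of sterol synthesis, 11 passed the filter. Condylar cartilage was higher than MC for 9 of 11 and lower for 0, with a median of 1.88, against 28.3% and 27.6% of all genes. It was higher than bone for 7 of 11 and lower for 1, against 23.4% and 25% of all genes. With total counts these were 10 and 0, and 7 and 2. *Cyp51*, the P450 enzyme of sterol synthesis that takes electrons from *Por*, had medians of 66.3 CPM in bone, 28.2 CPM in MC and 146 CPM in condylar cartilage. Its difference was 2.33 for condylar cartilage over MC (limma adjusted p = 8.82e-11), beside 0.61 for *Por*. *Lss* and *Sqle*, other enzymes of sterol synthesis, were higher in condylar cartilage than in MC by 2.84 (limma adjusted p = 2.93e-11) and 1.89 (limma adjusted p = 1.45e-07). *Cyp26b1*, which degrades retinoic acid, was lower in bone than in condylar cartilage, with -3.18 for bone over condylar cartilage (limma adjusted p = 1.44e-11).

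Of 39 other craniosynostosis genes, *Fgfr2* included, 36 passed the filter. In bone, 7 were higher and 21 lower than in MC, with a median difference of -0.47, but 17 higher and 4 lower and a median of 0.57 with total counts. In condylar cartilage, 9 were higher and 18 lower than in MC, with a median of -0.50 (16 and 10 with total counts, median 0.25). Between bone and condylar cartilage 15 were higher and 11 lower in bone. With TMM the shares of all genes in these pairs were, in turn, 26.3% and 24.1%, 28.3% and 27.6%, and 25% and 23.4%. *Msx2* and *Alx4*, homeobox genes of the skull vault, were lower in bone than in MC, with -3.49 for bone over MC (limma adjusted p = 5.91e-08) and -2.03 (limma adjusted p = 7.22e-09). *Fgfr3* was higher in condylar cartilage than in MC by 3.13 (limma adjusted p = 2.25e-10). Between genotypes, 0 genes of any of these lists passed in any tissue.

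The genes whose values ran most alike over the 18 libraries were found by Pearson's r of log2 values among all genes kept. These libraries share tissues, depth and scaling, so r mostly follows the tissue differences and is a description. *Tcf12* ran closest to *Antxr1* (r = 0.99), *Zeb1* and *Mmp14*, and *Il11ra1* to *Epha7* (r = 0.97), *Ly6e* and *Ehmt2*. *Efna4* ran closest to *Adamts1* (r = 0.95), *Dusp16* and *Cnksr3*, and *Twist1* to *Zcchc3* (r = 0.94), *Fam111a* and *Adgre5*. *Erf* ran closest to *Rpph1* (r = 0.96), *Mospd3* and the mitochondrial ribosomal RNA *mt-Rnr2* (r = 0.92). *Por* with *Plcl2* (r = 0.84), *Tbc1d7* and *Babam2*, and *Efnb1* with *Primpol* (r = 0.78), *Rdm1* and *Sp1*, were the least close. Among the members themselves, *Il11ra1* and *Efna4* had an r of 0.88 and *Il11ra1* and *Erf* of 0.84, whereas *Efnb1* had an r between -0.25 and 0.39 with the other 6.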

How the data were processed

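RNA was amplified with NuGEN Ovation v2 and made into Nextera XT libraries for 2×100 bp sequencing. The authors trimmed reads with cutadapt, used STAR with mm10, and ran featureCounts 1.5.0-p1 on Ensembl GRCm38.75 genes, ignoring strand. The deposited values are raw counts, with multi-mapped fragments left out. Depth was 8218548 to 15585778 fragments.

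A gene was kept where its FPKM exceeded 1 in 50% or more of the libraries. Counts were TMM-scaled and fitted over 6 groups with voom and limma 3.58.1 (edgeR 4.0.16, R 4.3.3), with Benjamini-Hochberg adjustment over 11469 genes at 0.05. Tissue comparisons and interactions had the embryo as a random block (correlation -0.025), since tissues of an embryo are paired by the sample descriptions. Genotype comparisons had no block. Intervals are 95%. Single values were also tested by two-sided exact permutation. edgeR's quasi-likelihood test and DESeq2 1.42.0 were alternatives, and fits were tested on simulated data. From each gene list, up to 4 genes a comparison with the lowest adjusted p were eligible to be named, besides direct partners and paralogs, and the 3 genes most correlated with each member. The 8 genes, the lists and the markers were chosen with earlier results of these data known.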

Additional observations from a re-analysis of the deposited data

How the results depend on the processing

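Over 63 differences of single genes, 1834 values under alternatives kept their side of the threshold in 1810 cases, passed anew in 13, no longer passed in 10 and reversed in 1. The 1810 include 116 changes of sign where neither fit called the difference. The reversal was *Tcf12* between bone and MC, 0.51 with total counts, a scaling added after seeing the data. The number of genes passing between bone and MC rose from 4 to 7 without a filter on low values. Of these, 1 was *Zic1*, with 0 fragments in all 12 bone and MC libraries, so that its call is void. The number fell to 2 with the 9 WT libraries alone (2831 of all 11341 genes passed), which also lowered it from 6 to 3 between condylar cartilage and MC (4247 of 11341). With the 9 *Fgfr2 +/S252W* libraries alone it was 4 (4677 of 11283) and 5 (5221 of 11283). With sample quality weights it rose from 2 to 4 between bone and condylar cartilage, and that of all genes from 5542 to 6891 of 11469. Between genotypes in bone it rose from 0 to 2 in the 5 bone libraries fitted alone without WT replicate 3, also added after seeing the data, while it was 0 with bone alone and 0 with that library left out of the fit of all tissues. The causes were not tested.

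With the replicate number as a replicate block, 0 of the 7 genes passed between genotypes in any tissue, and the block changed no call. Correlations of same-numbered libraries of both genotypes ranged from -0.13 to 0.27, the highest being that of condylar replicate 3. Those libraries had *Gm42418* at 20.2% in the mutant and 20.1% in WT, against 10.9% to 14.3% in the other condylar libraries. Between tissues, libraries taken as 1 embryo correlated at -0.081 to 0.11, so that the embryo pairing rests on the sample descriptions alone. Since these values are also low, the correlations cannot decide whether the numbers pair embryos of the 2 genotypes. Depth limits *Twist1*, *Efna4* and *Il11ra1* most among the genes kept, with as few as 23, 22 and 21 fragments in a library, and *Zic1* altogether.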
